A study of Mus musculus with 14 samples.

Results

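Chromatin accessibility was measured in sorted mouse hippocampal neuronal nuclei over 191271 regions of the mm9 build, and the regions described here are those that lie closest together. A region was taken as densely clustered when it lay on an autosome, was at least 200 and less than 2000 bases wide, and had 8 or more other regions with midpoints within 10000 bases of its own. This rule used positions and widths only, and it held for 167 of the 167876 autosomal regions of that width, which left 167709 for comparison.

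The assay for transposase-accessible chromatin (ATAC-seq) uses a transposase that cuts and tags DNA where it is not covered by nucleosomes, so the number of reads in a region follows how open that DNA is in the nuclei sampled. Open regions mark promoters and enhancers, and in neurons many enhancers open or close when the cell is activated. Enhancers of cell identity genes often lie in groups of several within a few kilobases, and copies of a repeated sequence can also give closely spaced regions, so spacing alone does not say what a region is.

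All mice came from a cross of ArcCreERT2, a tamoxifen-dependent Cre recombinase driven from the Arc gene, with a yellow fluorescent protein reporter (eYFP) that stays silent until Cre removes a stop signal, and all carry the genotype label +/+. Every group received hydroxytamoxifen, which lets Cre act, and a foot shock on day 0 in contextual fear conditioning. The groups were Basal (n = 4 libraries) and Early (n = 3), both labelled with no recall and collection on day 0, Late (n = 4), with no recall and collection on day 5, and Reactivated (n = 3), which underwent recall on day 5 and whose replicates 1, 2 and 3 are labelled as collected on day 5, day 6 and day 7 respectively. The labels do not say what sets Basal nuclei apart from Early nuclei, and the ages of the mice are not given in the sources used here. Nuclei were stained for NeuN, Arc and GFP before sorting, and each condition's 10000 nuclei came from pooled tissue of 10 to 12 mice, so a library is a pool and not an animal. The design text states 3 biological replicates, while Basal and Late have 4 libraries each. Nothing ties each library to its own pool, and p-values therefore measure the spread between libraries, part of which may be technical. The table gives no gene names and a genome of its build was not used here, so regions are named by position, cell type markers were not checked and no sequence is printed.

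A level is given as the deposited RPKM (the reads of a region scaled by its length and by the read total of the library) divided by the median RPKM of the same library over all regions, so 1 is the typical region of that library. The median member held 37 to 60 reads per library, and single members ranged from 1 to 1734. The libraries differed in ways that bear on these levels. The share of reads that fell in regions averaged 15.7% ± 2.71 over the 4 Basal libraries (SD), 19.9% ± 7.15 over the 3 Early, 19.2% ± 0.653 over the 4 Late and 23.1% ± 1.54 over the 3 Reactivated libraries, with Early replicate 2 the highest of all at 27.8%. The top of the range was compressed in Late, where the level exceeded by 0.1% of regions was 4.10 to 4.39, against 5.43 to 10.2 in the other 10 libraries.

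The 167 regions formed 69 clusters, counting as 1 cluster a run of members with neighbouring midpoints at most 10000 bases apart. Of these clusters 35 held 1 member, 14 held 2 and 20 held 3 or more, and these 20 contained 104 members. The largest was chr11:3049713-3081731 on chromosome 11, with 17 members over 32018 bases. Next in size were 2 clusters of 9 members on chromosome 15, at chr15:27662329-27677812 and chr15:27779585-27796393. Clusters of 7, 6, 6, 5 and 5 members followed at chr1:178924377-178935546, chr18:61136608-61146705, chr13:114660866-114671369, chr2:44902526-44910830 and chr1:134788562-134797670.

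The members were unevenly spread over the genome. Chromosome 15 held 34 of them, or 0.448% of its 7586 regions of this width, chromosome 1 held 22 (0.138%) and chromosome 11 held 21 (0.281%), of which 17 were the large cluster. Chromosomes 7, 9, 17 and 19 held 0 members among 3527, 7164, 3620 and 3079 regions, and no region there had more than 6, 7, 7 and 6 neighbours. A single stretch of 219021 bases, chr15:27662329-27881350, held 23 members in 4 clusters.

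Members were somewhat narrower than other regions. Their median width was 467 bases against 557, and their median distance to the nearest midpoint was 1309.5 bases against 4060. Regions covered a median of 23.9% of the bases within 10000 bases of a member (14.8% to 43.2%). Within that distance of any member lay 698 regions in all, of which 531 were not members themselves: 454 of the right width had fewer neighbours, and 69 were under 200 bases and 8 were 2000 bases or wider.

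Densely clustered regions were more accessible than other regions in every library, most so in Basal. The median member stood at 1.39, 1.48, 1.61 and 1.56 in Basal replicates 1 to 4 and at 1.38, 1.26 and 1.26 in Early replicates 1 to 3. It stood at 1.21, 1.25, 1.27 and 1.29 in Late replicates 1 to 4 and at 1.33, 1.30 and 1.36 in Reactivated replicates 1 to 3. All 4 Basal libraries lay above the other 10, although Basal replicate 1 and Early replicate 1 almost met. Averaged by group (mean ± SD over 4, 3, 4 and 3 libraries), the median member stood at 1.51 ± 0.0962 for Basal, 1.30 ± 0.0680 for Early, 1.25 ± 0.0381 for Late and 1.33 ± 0.0310 for Reactivated. The median of the other regions was 0.988 to 1.01 in all libraries. These values are a description, with no test of the list as a whole. The positions that define the members come from region calling, and which reads decided the calls is not given here. How far the calling itself ties level to crowding was not tested. In pooled nuclei, fewer nuclei with an open region and less cutting per nucleus cannot be told apart.

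**Figure D1:**
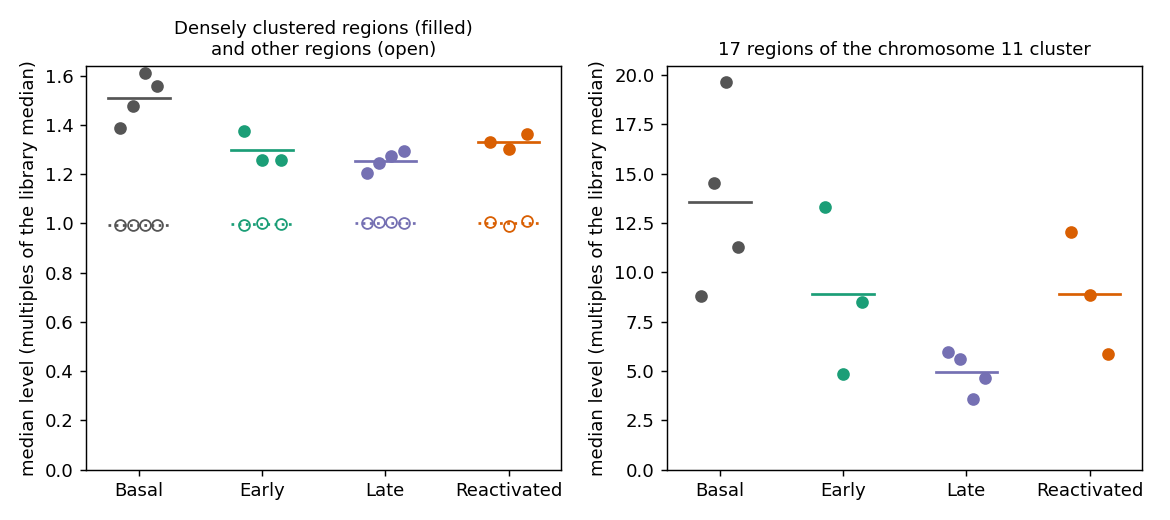
Median level per library (y axis, multiples of the library median) for the 4 groups, with 1 point per library and a line at the group mean. Left, densely clustered regions (filled points) at 1.21 to 1.61 above the other regions (open points) near 1; right, the 17 regions of the chromosome 11 cluster, which lie at 3.56 to 5.95 in Late and at 8.82 to 19.7 in Basal.

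High levels were common but not general among members. Averaged over the 14 libraries, members ranged from 0.596 to 11.8 with a median of 1.34, and 91 of 167 (54.5%) lay in the top 25% of regions of this width, while 10 lay in the lowest 25%. The top 1% held 19 members, 17 of them from the chromosome 11 cluster. Without that cluster the median member still stood at 1.39 ± 0.0845 in Basal, 1.21 ± 0.123 in Early, 1.19 ± 0.0386 in Late and 1.25 ± 0.0574 in Reactivated. Basal replicate 1, at 1.30, was then below Early replicate 1, at 1.34, so those groups overlapped.

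The level rose with the number of neighbours over the whole table, and the rise was steepest in Basal. In Basal, regions with 0 neighbours had a median level of 0.867 ± 0.00336 (SD, n = 4), those with 3 had 1.06 ± 0.00105, those with 5 had 1.17 ± 0.0137 and those with 7 had 1.20 ± 0.0197. The corresponding Late values were 0.996 ± 0.00705, 1.01 ± 0.00283, 1.05 ± 0.00409 and 1.12 ± 0.0251 (n = 4), a much flatter slope. Reactivated ran from 0.971 ± 0.0256 at 0 neighbours to 1.13 ± 0.0528 at 7 (n = 3) and Early from 0.918 ± 0.0533 to 1.12 ± 0.0597 (n = 3). By group mean, isolated regions were thus lowest in Basal, and regions with 7 neighbours highest there. Single libraries overlapped at 7 neighbours, where Basal ran from 1.17 to 1.22 while Early reached 1.19 and Reactivated 1.20. The Early libraries were spread widely at 0 neighbours, from 0.866, within the Basal range of 0.863 to 0.871, up to 0.973.

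The threshold of 8 neighbours cut through this rise. The 522 regions just outside it, with 7 neighbours, stood at 1.20 ± 0.0197 in Basal, 1.12 ± 0.0597 in Early, 1.12 ± 0.0251 in Late and 1.13 ± 0.0528 in Reactivated. The 123 members just inside it, with 8 neighbours, stood at 1.34 ± 0.0867, 1.23 ± 0.0959, 1.22 ± 0.0449 and 1.25 ± 0.0483. The 31 members with 9 neighbours reached 1.80 ± 0.132 in Basal but 1.23 ± 0.0448 in Late. Without those of the chromosome 11 cluster, the remaining 27 stood at 1.70 ± 0.154 in Basal and 1.16 ± 0.0815 in Late. Of the 13 members with 10 to 13 neighbours, 11 belonged to the chromosome 11 cluster.

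**Figure D2:**
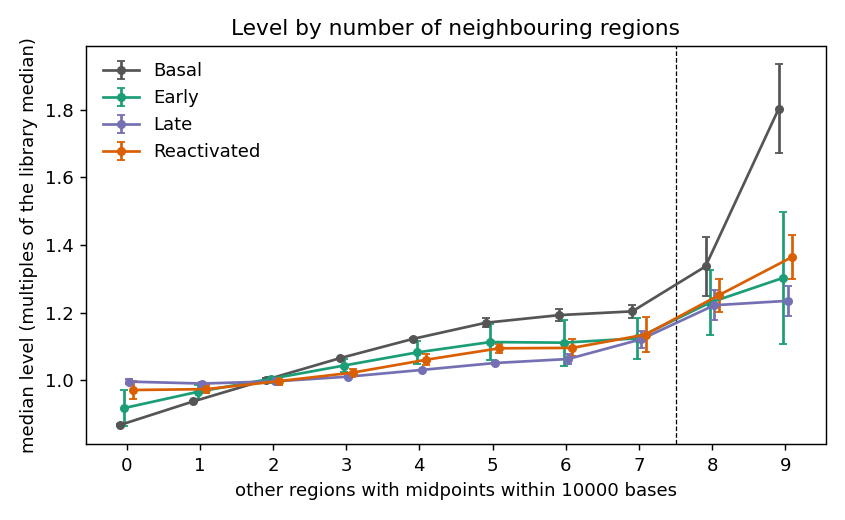
Median level (y axis, multiples of the library median) of autosomal regions at least 200 and less than 2000 bases wide by number of other regions within 10000 bases (x axis), as group means with SD bars over 3 or 4 libraries. The Basal line climbs from 0.867 at 0 neighbours to 1.80 at 9, and the Late line from 0.996 to 1.23. Without the chromosome 11 cluster, which is included in the lines, the values at 9 neighbours are 1.70 and 1.16. Members lie to the right of the dashed line.

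Differences between groups were tested region by region with limma on log2(level + 0.25), where the added 0.25 shrinks the changes of low regions, with Benjamini-Hochberg adjustment over all 172143 regions that passed a filter on low values. Of the members, 163 passed and 4 did not: chr1:25746282-25746715, chr12:37050817-37051049, chr15:18909745-18910226 and chr16:85052522-85052745, at mean levels of 0.596 to 0.641. The comparisons with Basal share the Basal libraries, so their values stand side by side and are not independent of each other.

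In Early against Basal, labelled with the same day, few members changed. Lower calls numbered 10 and higher calls 2 among the 163 members, or 6.13% and 1.23%, against a background over all tested regions of 6.56% lower, 7.95% higher and 14.5% in either direction (limma, adjusted p under 0.05). The median log2 fold change was -0.31 over members and 0.01 over other regions, and 121 of 163 members had a negative value, against 49.4% of the others. Groups did not overlap in the lower direction for 21 members (12.9%, background 11.4%) and in the higher direction for 7 (4.29%, background 12%). The calls depended on Early replicate 2: without it 1 member was higher and 3 lower, and without Early replicate 1, 5 were higher and 25 lower. Shares over all tested regions in those fits are not given here, so the counts show only how the members' calls moved. On the deposited RPKM without division by the library median, where the median of all regions was 0.25 in place of -0.00, 5 members were higher and 0 lower, with 28 members at an unadjusted p under 0.05. Of all 172143 tested regions, 19186 were then higher and 2507 lower.

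In Late against Basal the members fell more often than regions in general. Of 163 members 52 were lower (31.9%, background 16.3%) and 11 higher (6.75%, background 14%, and 30.3% in either direction) by limma at an adjusted p under 0.05. The median log2 fold change was -0.33 over members and 0.01 over other regions. The lower calls ran from -1.67 to -0.49 and lay in 27 of 67 clusters with a tested member, and the higher calls ran from 0.62 to 1.23 in 11 clusters. Without the chromosome 11 cluster, 35 of 146 members were lower (24.0%) and 11 higher (7.53%), with a median of -0.21. Groups did not overlap in the lower direction for 56 members (34.4%, background 17.3%) and in the higher for 12 (7.36%, background 15.6%). On the deposited RPKM without division, where the median of all regions rose to 0.31, 20 members were lower and 19 higher, with a member median of 0.02. Over all tested regions 10314 were then lower and 41041 higher. Higher calls made up 79.9% of all calls, against 48.7% of the members' calls. Quantile normalization gave 34 lower and 20 higher members, against 26318 lower and 28131 higher over all tested regions.

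The excess of lower members in Late was present at some levels and not at others. Among tested regions of this width between the median and the upper quartile of mean level, 37.5% of 48 members were lower in Late, against 17.6% of 38257 other regions. From the upper quartile to the top 10% it was 18.4% of 38 members against 14.4% of others, and from there to the top 1% 22.2% of 27 against 16.4%. Between the lower quartile and the median the order was the opposite, with 9.09% of 22 members and 16.2% of others lower, and below the lower quartile 0% of 9 members and 9.81% of others were. Of the 19 members in the top 1%, 17 lay in the chromosome 11 cluster, so their share rests mostly on 1 stretch of DNA. In that top 1%, where the compressed range of Late also lies, 100% of 19 members and 60.4% of 1514 others were lower. The part of that compression in the falls was not tested.

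In Reactivated against Basal 25 members were lower (15.3%, background 10%) and 9 higher (5.52%, background 10%), where 20% of all tested regions passed in either direction by limma. Groups did not overlap in the lower direction for 29 members (17.8%, background 14%) and in the higher for 21 (12.9%, background 15.4%). The median log2 fold change was -0.16 over members, 0.08 over other regions and 0.07 over all tested regions. The lower calls lay in 18 clusters, and none of the 17 members of the chromosome 11 cluster was among them (limma, 3 of 17 at an unadjusted p under 0.05). The calls moved with single libraries: 22 members passed without Basal replicate 2 (7 higher and 15 lower) or Basal replicate 3 (6 and 16), and 18 without Reactivated replicate 2 (6 and 12) or Reactivated replicate 3 (4 and 14). For these fits too the shares over all tested regions are not given here. When the share of reads in regions was added to the fit as a covariate, 0 members and 0 of all tested regions passed, although 21 members and 23912 regions had an unadjusted p under 0.05. That share was 13.2% to 19.3% in the Basal and 21.3% to 24.0% in the Reactivated libraries. The groups did not overlap in it, so this fit cannot cleanly separate share from group. On the deposited RPKM without division, where the median of all regions was 0.43, 30 members were higher and 8 lower. Over all tested regions 41568 were then higher and 8188 lower. Higher calls made up 83.5% of all calls, against 78.9% of the members' calls.

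In Reactivated against Late, which sets recall beside no recall at 5 days or later, 1 of 163 members was higher and 0 lower (0.613%, background 0.709% higher, 0.358% lower and 1.07% in either direction, limma), with 34 members at an unadjusted p under 0.05. The median was 0.12 over members and 0.05 over other regions. Groups did not overlap in the higher direction for 28 members (17.2%, background 12%) and in the lower for 7 (4.29%, background 6.28%). Without Basal replicate 1, Basal replicate 3 or Early replicate 2 the higher calls numbered 2, and without Early replicate 1 they numbered 3, with no share over all tested regions given for those fits. The single called member, chr15:74424229-74425317, is described below with the other single regions.

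Across regions of all spacings the median fold change against Basal went from positive to negative as neighbours increased. In Late against Basal it was 0.11 for regions with 0 neighbours, -0.00 with 2, -0.05 with 3 and -0.11 with 5. It was -0.09 with 7, -0.15 for the 117 tested members with 8 and -0.43 for the 27 with 9, both outside the chromosome 11 cluster. In Early against Basal the same steps gave 0.04, 0.01, -0.01, -0.05, -0.10, -0.16 and -0.40. Those of Reactivated against Basal were 0.17, 0.07, 0.03, -0.01, -0.02, -0.04 and -0.18, so its turn to negative values came later. Lower calls in Late rose along the same axis from 12.1% of tested regions with 0 neighbours to 20.1% with 5 and 18.8% with 7, while higher calls went from 18.9% to 9.74% and 11.3%. In Reactivated against Late the median stayed between 0.04 and 0.08 up to 8 neighbours and was 0.18 with 9.

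**Figure D3:**
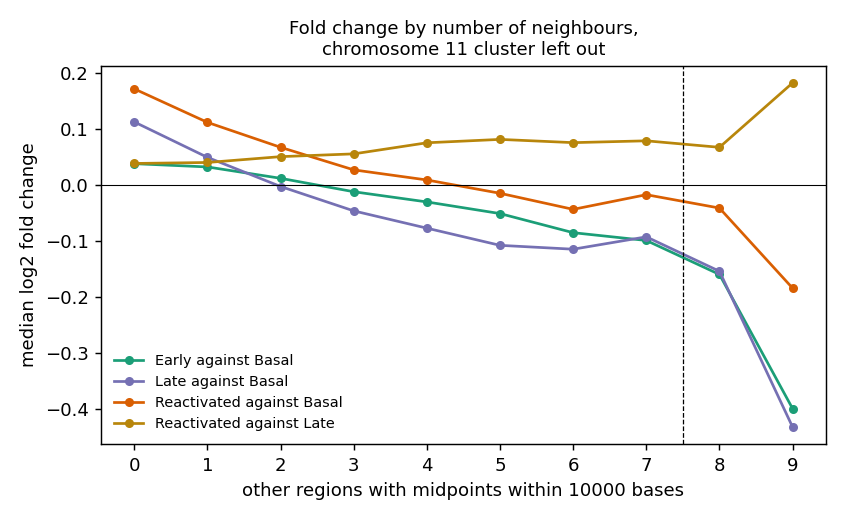
Median log2 fold change (y axis) of tested autosomal regions at least 200 and less than 2000 bases wide by number of other regions within 10000 bases (x axis), 1 line per comparison, with the chromosome 11 cluster left out. The lines against Basal fall from 0.04 to 0.17 at 0 neighbours to between -0.43 and -0.18 at 9 neighbours (27 members).

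The cluster on chromosome 11 was the extreme of the set in number, in crowding and in level. It lay close to the start of the covered part of that chromosome, whose first region begins at base 3001132. Whether copies of a repeated sequence contribute to its levels or its changes was not tested. All 17 members stood at 6.01 to 11.8 averaged over libraries, and up to 13 other regions lay within 10000 bases of one of them. The median over the 17 was 8.82, 14.5, 19.7 and 11.3 in Basal replicates 1 to 4, 13.3, 4.86 and 8.47 in Early replicates 1 to 3, 5.95, 5.62, 3.56 and 4.65 in Late replicates 1 to 4, and 12.0, 8.84 and 5.85 in Reactivated replicates 1 to 3. Late lay below every Basal library, while Early and Reactivated overlapped with both. Within Basal, Early and Late the cluster was high where the share of reads in regions was low. Basal replicate 3, with the highest median, had a share of 13.2%, and Basal replicate 1, with the lowest, had 19.3%. Early replicates 1, 3 and 2 had shares of 13.8%, 18.1% and 27.8%, in the reverse order of their medians. Reactivated did not follow that order, with 24.0% in replicate 1 and 23.9% in replicate 3.

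All 17 members of the cluster were lower in Late than in Basal (limma, highest adjusted p = 0.0303), with log2 fold changes of -1.67 to -0.76 and a median of -1.41. The highest member, chr11:3059570-3060223, stood at 18.3 ± 6.29 over the Basal and 5.95 ± 1.21 over the Late libraries (SD, n = 4 each), a log2 fold change of -1.54 ± 0.26 SE with adjusted p = 0.00107. It held 205 to 868 reads per library. Early had 10.9 ± 3.65 and Reactivated 11.8 ± 3.39 there. The other members of highest level, chr11:3056598-3057033 and chr11:3061135-3061768, stood at 15.9 ± 5.61 and 14.9 ± 5.09 in Basal and at 5.32 ± 1.28 and 5.32 ± 1.55 in Late. The largest fall was at the widest member, chr11:3049713-3051579, from 12.9 ± 4.47 to 3.82 ± 1.10 (log2 fold change -1.67 ± 0.32 SE, adjusted p = 0.00202). The calls differed between scalings. Under quantile normalization, which gives every library the same distribution of values, 0 of 17 were called (limma, 0 at an unadjusted p under 0.05), the median was -0.16 and the sign of chr11:3059570-3060223 turned to 0.05. On the deposited RPKM without division 12 of 17 were lower, and with median-of-ratios scaling 17. The 8 further regions within 10000 bases of the cluster that were not members had levels of 14.5 ± 4.95 in Basal and 5.26 ± 1.30 in Late, and all 8 were lower in Late.

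In the other comparisons no member of the chromosome 11 cluster passed. Early against Basal had a median of -0.59 with 17 of 17 negative values (limma, 4 at an unadjusted p under 0.05), and Reactivated against Basal one of -0.56, also with 17 of 17 negative. Reactivated against Late had a median of 0.80, with 17 of 17 positive. By limma 14 had an unadjusted p under 0.05, as had 25986 of all 172143 tested regions. Groups did not overlap in the higher direction for 9 members (52.9%, background 12%). The 1514 other regions in the top 1% of level had a median of 0.82, and 36.5% of them were called higher. When the fit took account of the share of reads in regions, 13 of the 17 were higher in Reactivated than in Late. In that fit 1180 of all 172143 tested regions were higher. The share was 18.4% to 20.0% in the Late and 21.3% to 24.0% in the Reactivated libraries. It did not overlap between these groups, so the fit cannot cleanly separate share from group.

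The stretch on chromosome 15 was crowded but far lower in level. The median over its 23 members was 1.71 ± 0.117 for Basal, 1.12 ± 0.114 for Early, 1.09 ± 0.0926 for Late and 1.28 ± 0.117 for Reactivated (mean ± SD over libraries). All 23 passed the filter. In Early against Basal 4 were lower (17.4%, background 6.56%) and 23 of 23 had negative fold changes. In Late against Basal 7 were lower (30.4%, background 16.3%) and 21 negative, and in Reactivated against Basal 5 were lower (21.7%, background 10%) and 15 negative. The medians were -0.44, -0.43 and -0.27, and every call among the 23 members was in the lower direction. The 47 other regions of the stretch gave medians of -0.31, -0.28 and 0.06, with 8, 13 and 3 lower and 1, 3 and 3 higher. Their shares of lower calls in Early and Late were near the members' 17.4% and 30.4% and above the background. In Reactivated their share was below both the members' 21.7% and the background of 10%. The excess of lower calls in Early and Late was therefore not limited to the members of the stretch.

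Within the stretch the clusters differed. The first, chr15:27662329-27677812, had a median level of 1.73 ± 0.162 in Basal, 1.11 ± 0.244 in Early, 1.14 ± 0.0814 in Late and 1.11 ± 0.0777 in Reactivated, and all of its 9 members had negative fold changes in each comparison with Basal. Calls there numbered 3 lower in Early, 3 in Late and 5 in Reactivated. The next along, chr15:27714734-27724716 with 4 members, stood at 2.16 ± 0.305, 1.48 ± 0.0247, 1.75 ± 0.141 and 2.42 ± 0.310 in the same order of groups, so the cluster median of Reactivated was not below that of Basal, although 1 of the 4 members had a negative fold change. The cluster of 9 at chr15:27779585-27796393 stood at 1.52 ± 0.152, 1.05 ± 0.0819, 1.02 ± 0.171 and 1.36 ± 0.0392, with 3 lower calls in Late. The lowest adjusted p there was 0.104 in Early and 0.0762 in Reactivated (limma). The last, chr15:27880427-27881350, was 1 region, at a mean level of 0.948, with log2 fold changes of -0.02 in Early, 0.03 in Late and 0.40 in Reactivated against Basal (adjusted p = 0.965, 0.927 and 0.222 by limma).

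**Figure D4:**
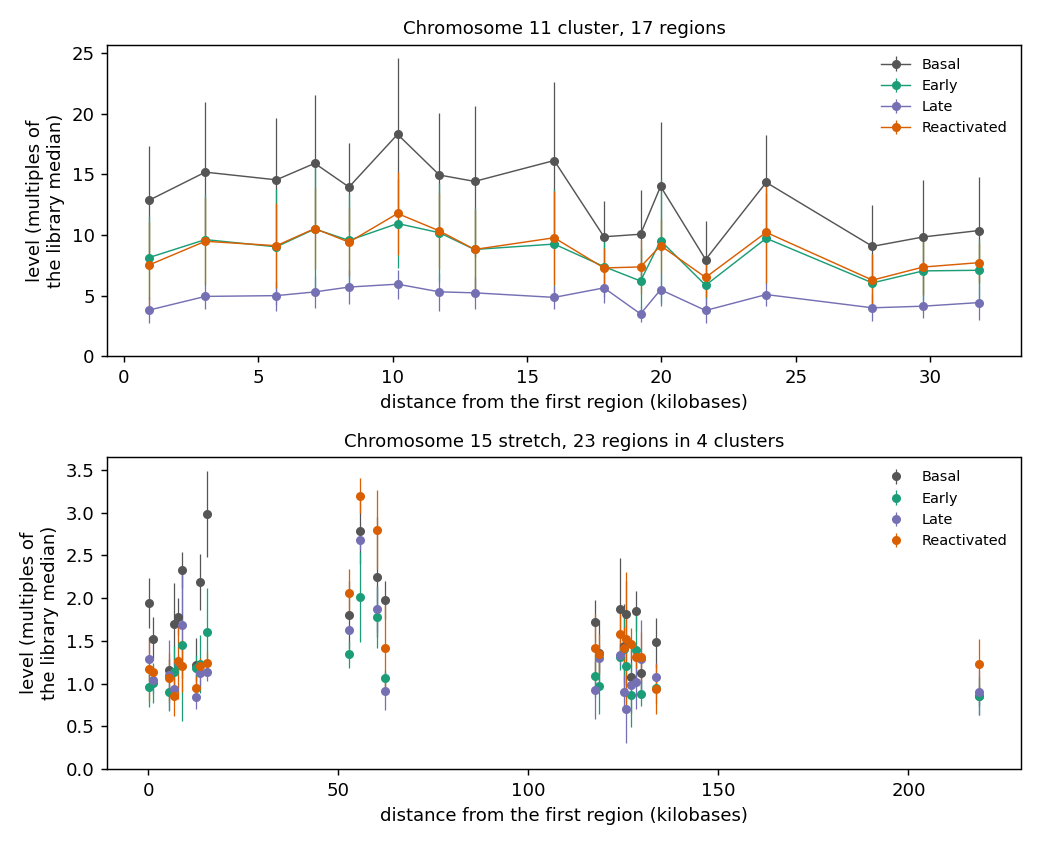
Level of each member (y axis, multiples of the library median; points are group means and bars SD over 3 or 4 libraries) by distance from the first member (x axis, kilobases). Top, the 17 regions on chromosome 11, where Late is lowest at every region; bottom, the 23 regions on chromosome 15, where the leftmost 9 are highest in Basal by cluster median (1.73) and the next 4 have cluster medians of 2.42 in Reactivated and 2.16 in Basal, with the last of the 4 lower in Reactivated (1.41) than in Basal (1.98).

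Most of the remaining large clusters had lower means in Early and Late than in Basal. At chr13:114660866-114671369 the median over 6 members was 1.60 ± 0.201 in Basal, 1.19 ± 0.234 in Early, 1.00 ± 0.0927 in Late and 1.09 ± 0.214 in Reactivated, with 1, 3 and 2 members lower than Basal in Early, Late and Reactivated. At chr18:61136608-61146705, also with 6 members, it was 2.17 ± 0.452, 1.43 ± 0.145, 1.65 ± 0.182 and 1.65 ± 0.160, with 1 lower call in Late, 2 in Reactivated and a lowest adjusted p of 0.0624 in Early (limma). At chr1:178924377-178935546 the group medians were 1.19 ± 0.171, 1.04 ± 0.339, 0.931 ± 0.107 and 1.13 ± 0.222, and the libraries of all 4 groups overlapped. At chr2:44902526-44910830 the lowest adjusted p in any comparison was 0.108 (limma), with levels of 1.27 ± 0.0737, 1.03 ± 0.0393, 1.31 ± 0.180 and 1.41 ± 0.232. At chr1:134788562-134797670 they were 1.35 ± 0.167, 0.853 ± 0.116, 0.913 ± 0.229 and 1.18 ± 0.134, with 1 lower call in Early and 1 in Late. Over all tested regions the shares of lower calls were 6.56% in Early, 16.3% in Late and 10% in Reactivated against Basal.

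Members of 1 cluster did not always move together. Of the 20 clusters with 3 or more tested members, all members had negative fold changes in 9 clusters for Early against Basal, in 8 for Late and in 4 for Reactivated, and in 0 clusters were all positive. The median member was negative in 18, 19 and 16 of the 20. In Late against Basal 4 of 67 clusters held both a lower and a higher call, and in Reactivated against Basal 2 did. The clearest case was chr1:178924377-178935546, where 2 of 7 members were lower and 1 higher in Late.

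That higher member, chr1:178926815-178927276, 461 bases wide, stood at 0.877, 0.905, 0.879 and 1.05 in Basal replicates 1 to 4 and at 1.43, 2.10 and 1.02 in Early replicates 1 to 3. It stood at 1.87, 1.92, 2.25 and 1.82 in Late replicates 1 to 4 and at 2.64, 2.02 and 3.13 in Reactivated replicates 1 to 3. All Late and Reactivated libraries were above all Basal libraries, and Early overlapped with Basal. The log2 fold change against Basal was 0.91 ± 0.19 SE in Late (limma, adjusted p = 0.00315) and 1.25 ± 0.20 SE in Reactivated (adjusted p = 0.00269).

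The member chr13:84833028-84833682, 654 bases wide, was higher than Basal in all 3 other groups. It stood at 1.17, 0.754, 1.08 and 0.876 in Basal replicates 1 to 4, 1.51, 3.29 and 1.85 in Early replicates 1 to 3, 2.45, 2.02, 2.86 and 1.97 in Late replicates 1 to 4 and 1.95, 2.01 and 2.67 in Reactivated replicates 1 to 3. No library of the 3 groups reached down to the Basal range. The log2 fold change was 0.96 ± 0.23 SE in Early (limma, adjusted p = 0.0126), 1.08 ± 0.21 SE in Late (adjusted p = 0.00232) and 1.01 ± 0.23 SE in Reactivated (adjusted p = 0.00835). The call in Early was lost without Early replicate 2.

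The only other member higher in Early was chr1:31213484-31214315, with 0.959 ± 0.155 in Basal and 2.39 ± 1.07 in Early for a log2 fold change of 1.07 ± 0.23 SE (limma, adjusted p = 0.00808). Early replicate 2, at 3.63, was far above replicates 1 and 3, at 1.72 and 1.84, and all 3 were above Basal. Late had 1.61 ± 0.240 and Reactivated 1.62 ± 0.301. Higher calls in Late included chr3:107289263-107289531 and chr10:99066358-99066561, with log2 fold changes of 0.90 ± 0.27 and 0.82 ± 0.25 SE. Those in Reactivated included chr14:80668965-80669300 and chr15:68900859-68901369, with 0.88 ± 0.23 and 0.86 ± 0.28 SE. The member chr15:68900859-68901369 held 13 to 117 reads per library. These calls did not hold when certain libraries were left out 1 at a time. That at chr3:107289263-107289531 was lost without Basal replicate 2, Late replicate 1 or Late replicate 2. That at chr10:99066358-99066561 was lost without Basal replicate 4, Late replicate 3 or Late replicate 4. The call at chr14:80668965-80669300 was lost without Reactivated replicate 3, and that at chr15:68900859-68901369 without Basal replicate 1 or 3, Late replicate 3 or any Reactivated library. The calls at these regions of chromosomes 3, 10, 14 and 15 were also lost when the share of reads in regions entered the fit.

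The member with the smallest adjusted p was chr15:27677498-27677812, 314 bases wide, at the end of the first chromosome 15 cluster. It stood at 2.33, 3.08, 3.55 and 2.98 in Basal replicates 1 to 4, 1.69, 1.06 and 2.07 in Early replicates 1 to 3, 1.21, 1.13, 1.23 and 0.989 in Late replicates 1 to 4 and 1.41, 1.13 and 1.18 in Reactivated replicates 1 to 3. Every Basal library was above every other library. The log2 fold change was -0.83 ± 0.20 SE in Early (limma, adjusted p = 0.0139), -1.21 ± 0.19 SE in Late (adjusted p = 0.000738) and -1.11 ± 0.20 SE in Reactivated (adjusted p = 0.00360). The neighbouring members chr15:27675714-27676114 and chr15:27662329-27662634 fell by 0.74 and 0.86 on the log2 scale in Early, and chr15:27724281-27724716 in the next cluster fell by 0.76. These 4 calls in Early were lost without Early replicate 2 and on the deposited RPKM without division.

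Lower members in Reactivated were led by chr1:33694682-33694928, 246 bases wide, with 1.77, 2.24, 2.55 and 2.12 in Basal replicates 1 to 4 and 1.75, 0.0557 and 0.570 in Reactivated replicates 1 to 3. Its log2 fold change was -1.60 ± 0.47 SE (limma, adjusted p = 0.0261), a call lost without Basal replicate 2 or 3 or Reactivated replicate 2 or 3. It rests on 1 to 48 reads per library, and the 1 read was in Reactivated replicate 2. At chr18:61144819-61145093 the level went from 3.18 ± 1.44 in Basal to 1.15 ± 0.608 in Reactivated, a change of -1.30 ± 0.33 SE on the log2 scale (adjusted p = 0.0142) that was lost without Reactivated replicate 2. At chr10:98397017-98397238 it went from 2.72 ± 0.982 to 1.26 ± 0.124 (log2 fold change -0.93 ± 0.21 SE, adjusted p = 0.00898), and Early and Late were also lower there, at 1.49 ± 0.281 and 1.49 ± 0.0824. The call in Early was lost without Basal replicate 2 or 3, Early replicate 1 or Early replicate 2.

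The member chr15:74424229-74425317, 1088 bases wide, was the only one to pass in Reactivated against Late. It stood at 16.5, 12.5 and 13.8 in Reactivated replicates 1 to 3 and at 5.72, 5.72, 5.27 and 5.61 in Late replicates 1 to 4. Basal replicates 1 to 4 were at 8.36, 7.34, 7.65 and 8.42 and Early replicates 1 to 3 at 6.79, 5.26 and 8.76. Reactivated was thus above every library of the other groups. The log2 fold change was 1.31 ± 0.17 SE against Late (limma, adjusted p = 0.00501) and 0.82 ± 0.17 SE against Basal (adjusted p = 0.00632), and Late against Basal gave -0.49 ± 0.16 SE (adjusted p = 0.0290), a call lost without Basal replicate 4 or any 1 of the Late libraries. It held 376 to 1460 reads per library. The call against Late was lost under quantile normalization, where Late against Basal turned to 0.69 (adjusted p = 0.00566), and the call of Reactivated against Basal was lost when that share of reads entered the fit.

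**Figure D5:**
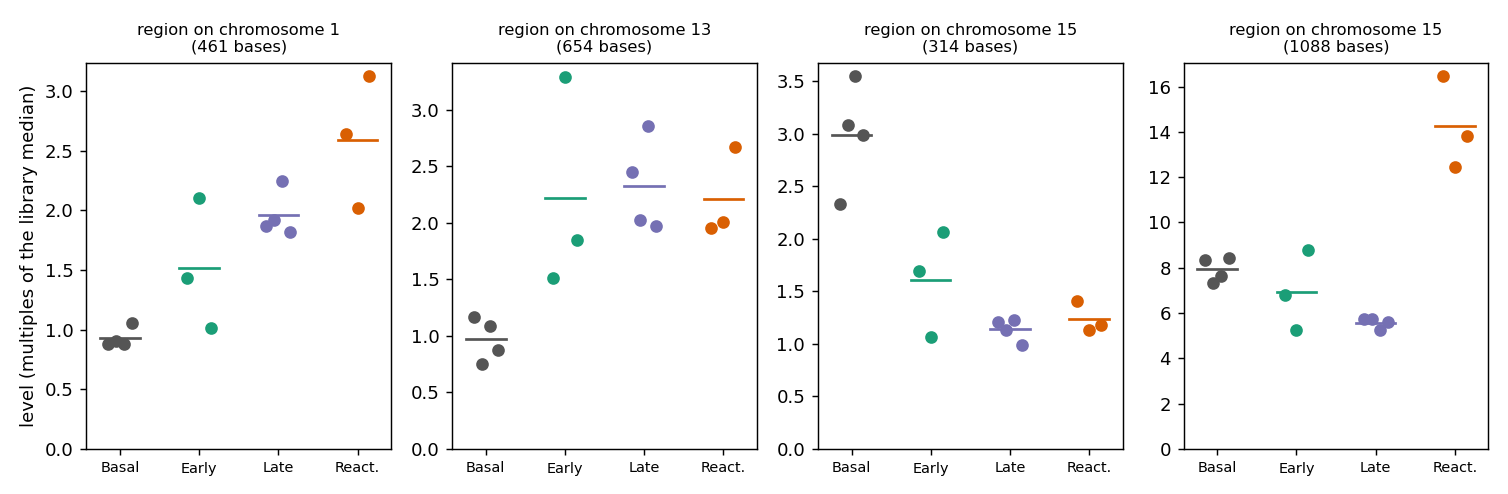
Level per library (y axis, multiples of the library median, 1 point per library, line at the group mean) of 4 single members in the 4 groups. By group mean the member on chromosome 1 goes from 0.929 in Basal to 2.60 in Reactivated, that on chromosome 13 is at 2.21 to 2.33 in all groups but Basal (0.970), that of 314 bases on chromosome 15 is highest in Basal (2.99), and that of 1088 bases on chromosome 15 is highest in Reactivated (14.3).

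Regions beside the members but not themselves members had medians nearer to 0, and their shares of calls lay near those of all tested regions in Early and Reactivated. Leaving out those at the chromosome 11 cluster, 523 regions lay within 10000 bases of a member, with median levels of 1.34 ± 0.0296 in Basal, 1.26 ± 0.0592 in Early, 1.19 ± 0.0132 in Late and 1.28 ± 0.0168 in Reactivated. Of the 506 tested, 106 were lower in Late (20.9%, background 16.3%) and 47 higher (9.29%, background 14%), with a median of -0.14, against 24.0% and 7.53% and a median of -0.21 of the 146 members outside that cluster. In Early against Basal 26 were lower and 26 higher (5.14% each way, background 6.56% and 7.95%), with a median of -0.12. In Reactivated against Basal 60 were lower (11.9%, background 10%) and 36 higher (7.11%, background 10%), with a median of -0.02.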

How the data were processed

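The authors deposited 1 table of RPKM values for 14 libraries and 191271 regions. Bowtie2 2.0, SAMtools, MACS2, DiffBind, DESeq2 and mm9 are named per the submitters' processing notes, without role or order. Region calling and duplicate removal bear on how many regions lie close together, and their settings were not given in the sources used here. No regions overlapped.

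RPKM times length (end minus start) was a whole multiple of 1 step in 100% of values (tolerance 0.01), which gave 7145415 to 15075081 reads in regions of 46134255 to 56251679. Libraries of 1 group differed by more than sampling noise (mean chi-square 1.77 to 6.68, where noise gives 1).

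Each column was divided by its median. The 10% of regions with the lowest mean were left out. All libraries entered 1 limma fit (limma 3.58.1, R 4.3.3, trend, robust), 2-sided, threshold 0.05. The test was checked on simulated reads. Python 3.11.15 and pandas 2.3.3 did the rest.

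Regions named are the highest members of the 8 largest clusters, the 3 highest members, and, per direction and comparison, the 4 largest fold changes among called members with groups without overlap and a mean level above the members' median. The chromosome 15 stretch with its smaller clusters, and the 4 members left out by the filter, are named besides and were chosen after their values were seen. Members, lists and alternatives were chosen with earlier results of these data known. No batch is labelled.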

Additional observations from a re-analysis of the deposited data

Results flagged for a closer look

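Among 72 sets of 4 libraries of 1 group, 3 held a library far from the other 3, where chance gives about 5% of sets. At chr1:178926815-178927276 Basal replicate 4 stood at 1.05 against 0.877 to 0.905 in the other Basal libraries. At chr14:80668965-80669300 Basal replicate 1 stood at 3.81 against 2.06 to 2.32. At chr3:107289263-107289531 Late replicate 3 stood at 1.38 against 2.43 to 2.59.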

How the results depend on the processing

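The share of tested members called in either direction was 7.36% in Early, 38.7% in Late and 20.9% in Reactivated against Basal, and 0.613% in Reactivated against Late. The median log2 fold change of members minus that of other regions was -0.32, -0.34, -0.24 and 0.07 in the same order. On undivided RPKM the calls were 3.07% in Early and 23.9% in Late. Quantile normalization moved the medians to -0.25 in Early, -0.17 in Late and -0.045 in Reactivated against Late, where 0% were called. It turned chr11:3059570-3060223 to 0.053 and chr15:74424229-74425317 to 0.69 in Late against Basal. A pseudocount of 1 gave -0.20, -0.23 and -0.16 against Basal. Adjusting for each library's share of reads in regions gave medians of -0.23, -0.24, -0.026 and 0.13, with 0% called in Reactivated against Basal and 8.59% against Late. Fitting only the groups compared gave 0.606% in Early and 6.06% in Reactivated against Late. Members with 6 or more neighbours gave -0.11, -0.13 and -0.13 against Basal. Those with 10 or more gave -0.60, -1.29, -0.65 and 0.66, with 15.4% called in Early, 100% in Late and 0% in Reactivated against Late. A rule of 5 neighbours within 5000 bases gave 4.79% and -0.22 in Early and 0% in Reactivated against Late. Counting only neighbours of eligible width gave -0.46, -0.52, -0.49 and 0.12, with 0% called in the last. Without the highest 0.1% of regions Late gave -0.23 and the last comparison 0% called. Without the largest cluster, chosen after seeing the data, Early gave -0.24 and Late -0.22. The cause of these shifts was not tested.

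Leaving out each library in turn gave 2.44% to 18.4% called in Early, 26.4% to 41.5% in Late, 10.9% to 26.2% in Reactivated and 0.606% to 1.84% against Late. These are shares of the tested members, and shares over all tested regions in the same fits are not given here. The medians ran from -0.35 to -0.24, -0.34 to -0.27, -0.29 to -0.20 and 0.05 to 0.09. Same-numbered libraries did not deviate together (r -0.248 to 0.0586 over 19 pairs). With so few libraries per group, this cannot tell whether they shared a pool, a day or a run. A replicate block gave 4.29% called in Early.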
